A study of Homo sapiens with 14 samples.

Results

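The AP-1 and EGR immediate early genes were taken by symbol from the table of read counts per gene of K562 cells, an established human chronic myeloid leukaemia line. The set held 3 genes of the FOS family (FOS, FOSB, FOSL1), 3 of the JUN family (JUN, JUNB, JUND), 3 of the EGR family (EGR1, EGR2, EGR3) and IER2. They were 10 of the 24729 genes in the table, and all 10 passed the filter on low counts that left 14406 genes. EGR2 and EGR3 passed it through sgHS2 and sgHS1-5 libraries, where they were highest. RNA sequencing covered 14 libraries in 5 groups. Every sgRNA group stably carried an inactive Cas9 (dCas9) with Flag and biotin-acceptor tags and the biotin ligase BirA. The groups were sgHS2 (guide to HS2, one enhancer within the locus control region of the β-globin genes, n = 3), sgHBG (guide to the fetal globin promoters, n = 3), sgHS1-5 (guides to several elements of the locus control region, n = 3), sgGal4 (a non-targeting guide, n = 3) and WT (unmodified cells, n = 2). All cells were cultured in medium with fetal bovine serum, and the labels name no starvation or restimulation. Each sgRNA group was a cell population of its own, so a guide's effect and a difference between populations cannot be told apart.

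The libraries held 5694448 to 11335831 counted reads, and the sgHS1-5 libraries were the shallowest. A count of 0 in a library allowed a level of up to 0.262 to 0.486 CPM (read count scaled to library size), for counting error only. Whether replicates came from separate cultures is not given in the labels, and the tests below therefore speak of library-to-library spread. Library sgGal4 1 stood apart from sgGal4 2 and 3, with a chi-square per degree of freedom of 90.1 and 93.9 against 1.49 between those other libraries. Library sgHS2 2 stood apart less (16.6 and 17.3, against 1.76), and so did sgHS1-5 2 (12 and 18.4, against 3.11). All 12 K562 erythroid markers were detected in every library, and their summed level was 2747 to 2944 CPM in sgHS2, 2071 to 2095 in sgHBG, 2003 to 2510 in sgHS1-5, 1826 to 2051 in sgGal4 and 1701 to 1716 in WT. The summed level of 10 lymphoid and monocyte markers was 200.9 to 238.5 CPM in sgHS2, 464.7 to 483.9 in sgHBG, 430.9 to 955.3 in sgHS1-5, 286.1 to 443.8 in sgGal4 and 205.6 to 213.7 in WT. Most of that sum came from PTPRC and LYZ, which were expressed in every group, with means of 376.5 and 86.2 CPM in sgHBG and 166.2 and 36.3 in WT. In bulk RNA, a change in the number of cells of a type and a change in RNA per cell cannot be told apart.

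AP-1 is a dimeric transcription factor made of a FOS and a JUN protein, or of JUN proteins alone. It binds the motif TGANTCA. EGR proteins are zinc finger factors that bind the GC-rich motif GCGNGGGCG. Both families are known as immediate early genes: serum, growth factors and stress induce many of them within minutes, without new protein synthesis, through ERK, JNK and p38 kinases acting on SRF, its ELK partners and CREB-type factors at their promoters. In K562 cells the BCR-ABL fusion kinase is known to drive RAS and ERK signalling, and AP-1 and EGR1 are known for their part in megakaryocytic and myeloid differentiation of this line.

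The promoters of EGR1, FOS, FOSB and JUN are shown because the results below turn on these genes and because their start-proximal motifs differ. RefSeq promoter entries (build GRCh38.p14, 250 bases before to 50 after the start) matched 8 of the 10 genes, all but FOSL1 and EGR3. Sequences run 5′ to 3′ on the gene's strand, at chr5:138465229-138465528 (plus strand) for EGR1, chr14:75278578-75278877 (plus) for FOS, chr19:45467746-45468045 (plus) for FOSB and chr1:58783998-58784297 (minus) for JUN. Capitals mark matches to 5 of the 7 motifs searched on both strands: the CArG box (the motif of SRF), TGACG (a short CREB site, also read as CGTCA on the other strand), TGACATCA (a variant AP-1 site), GCGNGGGCG and TATAAA.
EGR1: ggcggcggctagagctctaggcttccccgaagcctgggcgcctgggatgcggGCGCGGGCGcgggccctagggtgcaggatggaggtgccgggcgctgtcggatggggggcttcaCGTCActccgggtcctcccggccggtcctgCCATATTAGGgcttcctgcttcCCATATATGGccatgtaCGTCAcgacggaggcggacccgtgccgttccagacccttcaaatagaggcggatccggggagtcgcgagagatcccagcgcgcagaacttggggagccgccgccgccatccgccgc
FOS: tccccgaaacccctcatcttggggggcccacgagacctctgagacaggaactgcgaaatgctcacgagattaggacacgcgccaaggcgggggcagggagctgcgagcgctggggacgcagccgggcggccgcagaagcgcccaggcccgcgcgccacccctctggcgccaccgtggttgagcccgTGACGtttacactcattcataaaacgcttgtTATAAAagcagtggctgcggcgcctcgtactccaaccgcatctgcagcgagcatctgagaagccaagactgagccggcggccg
FOSB: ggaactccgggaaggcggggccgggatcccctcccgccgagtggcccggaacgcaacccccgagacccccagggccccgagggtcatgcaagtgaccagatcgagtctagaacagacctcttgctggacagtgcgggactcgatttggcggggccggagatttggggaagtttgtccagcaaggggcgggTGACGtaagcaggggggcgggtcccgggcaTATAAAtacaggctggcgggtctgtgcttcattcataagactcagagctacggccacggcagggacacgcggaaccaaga
JUN: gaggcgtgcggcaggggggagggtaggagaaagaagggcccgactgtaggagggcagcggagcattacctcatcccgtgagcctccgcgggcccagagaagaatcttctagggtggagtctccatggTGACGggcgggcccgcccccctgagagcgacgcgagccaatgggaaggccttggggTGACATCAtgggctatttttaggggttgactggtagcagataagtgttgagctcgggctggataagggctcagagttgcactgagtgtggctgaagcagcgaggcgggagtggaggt

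EGR1 had 2 CArG boxes, CCATATTAGG at positions -105 to -96 and CCATATATGG at -83 to -74 from the start. It was the only one of the 8 matched genes with a CArG box in this window, which 1.29% of 27305 RefSeq promoters held. EGR1 also held GCGCGGGCG, a match to the EGR motif itself, at -198 to -190. That motif stood in 9.28% of promoters and in no other matched member. The short site TGACG was in 7 of the 8 windows (all but EGR2), and in 25% of all promoters. In FOS and FOSB it lay at -64 to -60 and at -60 to -56, upstream of a TATAAA at -33 to -28 and at -30 to -25. TATAAA was in 12% of all promoters. JUN held TGACG at -123 to -119 and TGACATCA, found in 2.71% of promoters, at -67 to -60. JUND held the full palindrome TGACGTCA, which contains the short site on both strands and was in 1.98% of promoters. TGANTCA was in none of the 8 windows and in 7.76% of all promoters. A match is a run of letters in this window and was not tested as a bound site. Sequence further than 250 bases before the start was not searched, so a gene without a match here may hold one there.

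Levels between genes were compared per transcript length, as RPKM (reads scaled to gene length and library size by the authors). The RPKM values were not a plain rescaling of the deposited counts. EGR2 had 0 reads in WT 1 and WT 2, but 0.01818 and 0.01704 RPKM there. Averaged over the 14 libraries, JUND was highest at 138.6 RPKM, followed by IER2 (99.97), JUNB (46.1), EGR1 (34.7), JUN (24.5) and FOSL1 (12.8). FOS (2.89), EGR2 (1.94), FOSB (0.996) and EGR3 (0.218) were low. Levels of a gene between libraries are given below as CPM scaled by trimmed-mean (TMM) factors, from the raw counts. Among the 5 groups, 9 of the 10 genes differed (edgeR quasi-likelihood F test, adjusted p under 0.05), where 67.1% of all tested genes did. IER2 was the exception (adjusted p = 0.857).

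**Figure D1:**
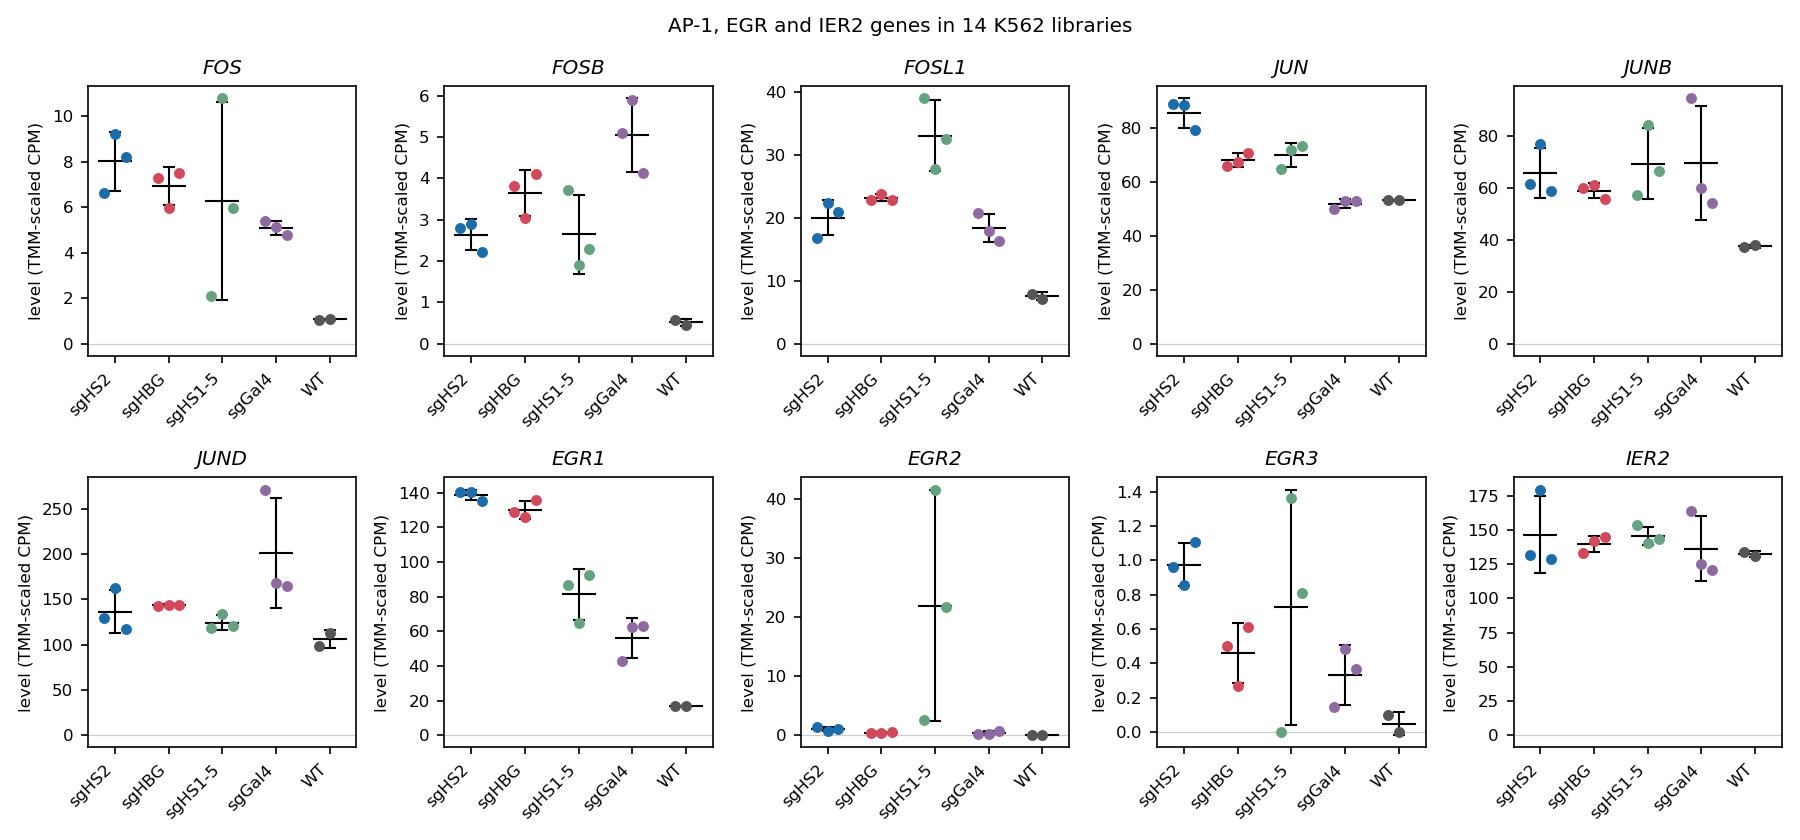
Level of each of the 10 genes (TMM-scaled CPM, linear axis) in the sgHS2, sgHBG, sgHS1-5, sgGal4 and WT libraries; each point is a library, and bars are the mean ± SD (n = 3, WT n = 2). WT points lie at the bottom for FOS, FOSB, FOSL1, JUNB and EGR1, 2 sgHS1-5 libraries are far above all others for EGR2, and IER2 is nearly level.

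FOS, the founding AP-1 subunit and the gene most used as a marker of acute stimulation, was low in every group and lowest in WT. It stood at 6.65, 9.22 and 8.20 CPM in sgHS2, at 7.30, 5.98 and 7.50 in sgHBG, at 2.11, 10.8 and 5.95 in sgHS1-5, at 5.39, 5.13 and 4.77 in sgGal4 and at 1.06 and 1.09 in WT. Every dCas9 library was above both WT libraries, and the sgHS1-5 libraries spanned nearly the whole range of the other groups. Against WT, FOS was higher by 2.88 ± 0.505 in sgHS2 (log2 ± SE, adjusted p = 8e-04), 2.67 ± 0.506 in sgHBG (0.00135), 2.55 ± 0.514 in sgHS1-5 (0.00165) and 2.23 ± 0.513 in sgGal4 (0.0038). With sgHS1-5 2 and 3 left out, the remaining library was only 0.96 above WT. The WT mean rests on 23 reads in all. Against sgGal4, FOS was not called in any group (0.65 ± 0.37 in sgHS2, adjusted p = 0.205, and 0.44 ± 0.371 in sgHBG, adjusted p = 0.398). The sgHS2 difference passed the threshold without sgHS1-5 1 (0.65, adjusted p = 0.0405). In sgHS1-5 it was 0.32 ± 0.382 (adjusted p = 0.528), was called higher without sgHS1-5 1 (0.72, adjusted p = 0.0385), and turned to -0.30 without sgHS1-5 2 (adjusted p = 0.498).

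FOSB, a FOS relative whose product forms the same dimers, was the family member for which sgGal4 was highest. Its level was 2.80, 2.90 and 2.21 CPM in sgHS2, 3.80, 3.03 and 4.10 in sgHBG, 3.72, 1.91 and 2.30 in sgHS1-5, 5.11, 5.90 and 4.13 in sgGal4 and 0.577 and 0.456 in WT. The sgGal4 libraries were above all others, by a narrow margin over sgHBG 3, and the WT libraries were below all others. FOSB was lower than sgGal4 in sgHS2 (-0.93 ± 0.259, adjusted p = 0.0162) and sgHS1-5 (-0.94 ± 0.269, adjusted p = 0.0148), and was not called in sgHBG (-0.47, adjusted p = 0.189). Both calls ended when sgGal4 2 was left out (-0.80, adjusted p = 0.0607 in sgHS2, and -0.81, adjusted p = 0.0535 in sgHS1-5). The call in sgHS2 also ended without sgHS2 3 (-0.82, adjusted p = 0.0716). The call in sgHS1-5 also ended without sgHS1-5 3 (-0.85, adjusted p = 0.0559). With sgHS1-5 2 and 3 both left out, the difference of the remaining library was only -0.43. Against WT, FOSB was higher by 2.32 ± 0.375 in sgHS2, 2.79 in sgHBG, 2.32 in sgHS1-5 and 3.26 ± 0.368 in sgGal4 (adjusted p from 1.85e-05 to 0.000437). The FOSB locus overlaps ERCC1 on the opposite strand, and the library kit did not mark strand, so reads of the shared part cannot be told apart.

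FOSL1 (FRA-1) is a FOS relative without the C-terminal activation domain of FOS, known for its later and longer induction. It made up most of the summed transcripts of the 3 FOS family genes in the set. Its level was 16.9, 22.3 and 21.0 CPM in sgHS2, 22.9, 23.8 and 22.9 in sgHBG, 39.0, 27.7 and 32.6 in sgHS1-5, 20.7, 18 and 16.3 in sgGal4 and 7.99 and 7.11 in WT. All sgHS1-5 libraries were above every other library and both WT libraries were below every other. FOSL1 was higher in sgHS1-5 than in sgGal4 (0.85 ± 0.149, adjusted p = 0.000826), sgHS2 (0.72 ± 0.147, adjusted p = 0.00216) and sgHBG (0.51 ± 0.146, adjusted p = 0.0221). The call against sgHBG ended without any sgHBG library (0.49, 0.53 and 0.50 without sgHBG 1, 2 and 3, adjusted p = 0.0739, 0.0592 and 0.0718), without sgHS1-5 1 (0.38, adjusted p = 0.091) and without sgHS1-5 3 (0.52, adjusted p = 0.0516). Against WT it was higher by 1.41 in sgHS2, 1.62 in sgHBG, 2.13 ± 0.182 in sgHS1-5 and 1.28 ± 0.18 in sgGal4 (adjusted p from 1.96e-06 to 0.000113). In sgHBG it was 0.34 above sgGal4 and not called (adjusted p = 0.105), but it was without sgGal4 1 (0.43, adjusted p = 0.0421). With sgHS1-5 2 and 3 left out, the remaining sgHS1-5 library was 2.37 above WT and 1.09 above sgGal4.

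JUN, the founding partner of FOS and a substrate of JNK, varied little within groups. It stood at 88.9, 88.7 and 79.2 CPM in sgHS2, at 66.1, 67.5 and 71.0 in sgHBG, at 64.9, 72.1 and 73.3 in sgHS1-5, at 50.1, 53.0 and 53.1 in sgGal4 and at 53.4 and 53.2 in WT. The 3 targeting groups lay above both sgGal4 and WT without overlap, and sgGal4 and WT lay beside each other, with means of 52.1 ± 1.73 (SD, n = 3) and 53.3 ± 0.138 (SD, n = 2) CPM. Against sgGal4, JUN was higher by 0.72 ± 0.0881 in sgHS2 (adjusted p = 8.08e-05), 0.39 ± 0.088 in sgHBG (0.00721) and 0.43 ± 0.0887 in sgHS1-5 (0.00249). Against WT it was higher by 0.68 ± 0.0996 in sgHS2 (adjusted p = 0.000206), 0.36 in sgHBG (0.0141) and 0.40 in sgHS1-5 (0.00644). The call in sgHBG against WT ended without WT 1 (0.36, adjusted p = 0.0851), WT 2 (0.35, adjusted p = 0.0903) or sgHBG 3 (0.33, adjusted p = 0.0533), and that in sgHS1-5 without WT 2 (0.39, adjusted p = 0.0504). Without sgHS1-5 2 and 3, the sgHS1-5 level was 0.32 above sgGal4 (adjusted p = 0.103) and 0.29 above WT (adjusted p = 0.136).

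JUNB and JUND, JUN relatives with weaker activation of AP-1 sites, were both raised in library sgGal4 1, one of the libraries that stood apart. JUNB stood at 61.4, 76.6 and 58.6 CPM in sgHS2, at 59.7, 61.1 and 55.5 in sgHBG, at 57.2, 84.3 and 66.2 in sgHS1-5, at 94.3, 59.8 and 54.2 in sgGal4 and at 37.0 and 37.8 in WT. The 4 dCas9 groups overlapped one another and lay above WT. JUNB was higher than WT by 0.81 ± 0.226 in sgHS2 (adjusted p = 0.015), 0.65 ± 0.225 in sgHBG (0.0404), 0.89 ± 0.228 in sgHS1-5 (0.00721) and 0.89 ± 0.227 in sgGal4 (0.0072), and was not called in any other comparison. Without WT 1 they ended in all 4 groups (0.79, 0.64, 0.87 and 0.87, adjusted p = 0.0964, 0.173, 0.0544 and 0.0559 in sgHS2, sgHBG, sgHS1-5 and sgGal4). Without WT 2 they ended in sgHS2 (0.82, adjusted p = 0.085) and sgHBG (0.67, adjusted p = 0.157). Each of the 4 JUNB calls thus ended without at least 1 library. The sgHS2 call ended without sgHS2 2 (0.68, adjusted p = 0.0513). The sgHBG call ended without sgHBG 1, 2 or 3 (0.64, 0.62 and 0.69, adjusted p = 0.0867, 0.095 and 0.0657), sgHS2 1 (0.65, adjusted p = 0.0531) or sgHS1-5 3 (0.65, adjusted p = 0.0547). With sgHS1-5 2 and 3 left out, the difference of the remaining sgHS1-5 library was only 0.61. Without sgGal4 1 the sgGal4 difference was 0.61 (adjusted p = 0.00682). Fitting only sgGal4 and WT also ended the sgGal4 call (0.89, adjusted p = 0.0653). JUNB overlaps HOOK2 on the opposite strand, with the same limit as FOSB and ERCC1.

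JUND was the most abundant member. Its level was 129.3, 162.9 and 117.0 CPM in sgHS2, 142.2, 144.2 and 144.2 in sgHBG, 118.1, 134.4 and 120.9 in sgHS1-5, 271.1, 168.0 and 164.5 in sgGal4 and 98.9 and 113.4 in WT. The sgGal4 libraries were above every other library, sgGal4 1 by far. JUND was higher than WT in sgGal4 (0.92 ± 0.205, adjusted p = 0.00308, and 0.65 with adjusted p = 0.000985 without sgGal4 1), and it was lower than sgGal4 in sgHS2 (-0.56 ± 0.179, adjusted p = 0.0316) and sgHS1-5 (-0.69 ± 0.18, adjusted p = 0.00911). In sgHBG it was not called by edgeR (-0.49 ± 0.178, adjusted p = 0.0641), but it was by DESeq2 (-0.49, adjusted p = 0.0398), and by edgeR without sgGal4 2 (-0.60, adjusted p = 0.0368) or sgGal4 3 (-0.61, adjusted p = 0.0301). The sgHS2 call ended without sgGal4 1 (-0.29, adjusted p = 0.0681), sgHS2 1 (-0.52, adjusted p = 0.102) or sgHS2 3 (-0.46, adjusted p = 0.128), and stood with sgGal4 1 and sgHS2 2 both left out (-0.45, adjusted p = 0.000804). The sgHS1-5 difference was -0.42 without sgGal4 1 (adjusted p = 0.0113). It was -0.77 with sgHS1-5 2 and 3 left out, a value that rests on the remaining library. Fits of only the groups compared ended the JUND calls of sgGal4 against WT (0.92, adjusted p = 0.0563), sgHS2 against sgGal4 (-0.54, adjusted p = 0.158) and sgHS1-5 against sgGal4 (-0.69, adjusted p = 0.0695). Against WT, JUND was not called in the targeting groups (0.36 in sgHS2, 0.43 in sgHBG and 0.23 in sgHS1-5, adjusted p = 0.193, 0.118 and 0.391). Without sgGal4 1, it was called higher in sgHS2 (0.36, adjusted p = 0.0233) and in sgHBG (0.43, adjusted p = 0.00843).

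EGR1, a zinc finger factor induced by ERK through SRF and ELK proteins, showed the widest graded pattern among the well-expressed members. It stood at 140.3, 140.2 and 134.9 CPM in sgHS2, at 128.6, 125.8 and 135.8 in sgHBG, at 86.6, 64.7 and 92.2 in sgHS1-5, at 42.6, 62.2 and 62.9 in sgGal4 and at 16.7 and 16.7 in WT. The order of the levels was sgHS2, sgHBG, sgHS1-5, sgGal4, WT. In that order sgHS2 and sgHBG overlapped and did not differ beyond their spread (0.09 ± 0.15, adjusted p = 0.796), and sgHS1-5 lay only just above sgGal4. Against WT, EGR1 was higher by 3.05 ± 0.195 in sgHS2 (adjusted p = 3.16e-07), 2.96 ± 0.195 in sgHBG (2.95e-07), 2.28 ± 0.19 in sgHS1-5 (1.6e-06) and 1.75 ± 0.187 in sgGal4 (1.21e-05). Against sgGal4 it was higher by 1.31 ± 0.154 in sgHS2 (adjusted p = 5.81e-05), 1.21 ± 0.153 in sgHBG (0.000166) and 0.53 ± 0.153 in sgHS1-5 (0.0151). The lowest sgGal4 value was that of sgGal4 1. Without it the differences against sgGal4 were 1.15, 1.06 and 0.37 in sgHS2, sgHBG and sgHS1-5 (adjusted p = 9.22e-06, 3.53e-05 and 0.0193), and the call in sgHS1-5 ended without sgHS1-5 3 (0.43, adjusted p = 0.0685). Between targeting groups, EGR1 was lower in sgHS1-5 than in sgHS2 (-0.77 ± 0.152, adjusted p = 0.00175) and sgHBG (-0.68 ± 0.152, adjusted p = 0.00634). Leaving out sgHS1-5 2 and 3 gave -0.68 and -0.59, values that rest on the remaining sgHS1-5 library.

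EGR2, which in blood is known from activated lymphocytes and from monocyte and macrophage differentiation, was high in 2 libraries only. It had 16, 7 and 11 reads in sgHS2, 3, 4 and 7 in sgHBG, 16, 305 and 161 in sgHS1-5, 1, 2 and 8 in sgGal4 and none in WT. As CPM these were 1.40, 0.751 and 1.01 in sgHS2, 0.300, 0.357 and 0.610 in sgHBG, 2.59, 41.7 and 21.8 in sgHS1-5, and 0.142, 0.194 and 0.734 in sgGal4. Libraries sgHS1-5 2 and 3 stood far above all others, and sgHS1-5 1 was also above every library of the other groups. EGR2 passed the filter on low counts through sgHS1-5 and sgHS2 libraries, so its sgHS1-5 calls draw on values that let it in. EGR2 was higher in sgHS1-5 than in sgGal4 (5.80 ± 0.909, adjusted p = 0.000527), sgHBG (5.65, adjusted p = 0.000908) and sgHS2 (4.36, adjusted p = 0.00117), and at least 164.3-fold higher than in WT (adjusted p = 0.000413), a bound set with 3 reads over the WT group. That bound was at least 92.9-fold without sgHS1-5 2, 169.4-fold without sgHS1-5 3 and 18.5-fold without both. With sgHS1-5 2 and 3 left out, the difference was 2.71 against sgGal4, 2.56 against sgHBG and 1.27 against sgHS2. These values rest on sgHS1-5 1 alone, which shows no spread within its group. In the other groups the bounds against WT were at least 7.66-fold higher in sgHS2, 3.05-fold in sgHBG and 2.77-fold in sgGal4, none of them called by edgeR (adjusted p = 0.0652, 0.204 and 0.207) and all called by DESeq2 (adjusted p = 0.00226, 0.0236 and 0.0273). Without sgHS1-5 1 EGR2 was called against WT in these groups too (adjusted p = 0.00391, 0.0312 and 0.034).

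Some genes known as markers of other blood cells moved with EGR2 across the sgHS1-5 libraries, and others did not. Of the 10 lymphoid and monocyte markers, 6 (MS4A1, CD79A, CSF1R and LYZ among them) ranked these libraries as EGR2 did and 4 (CD3D, CD3E, CD2 and PTPRC) did not. MS4A1 (CD20, a B cell surface protein) stood at 2.43, 38.9 and 9.60 CPM in sgHS1-5 1, 2 and 3 and at 0 in every other library. CSF1R, the macrophage growth factor receptor, stood at 0.81, 27.7 and 10.4 CPM there, and at 0.0874 to 0.275 CPM elsewhere. CD79A, a subunit of the B cell receptor, stood at 1.30, 21.0 and 5.54 CPM in sgHS1-5 and at 0 to 0.567 CPM in the other groups. PTPRC (CD45, the common leukocyte antigen) was even in these libraries, at 314.2, 309.3 and 313.2 CPM, and CD3D, a T cell receptor subunit, was lowest in sgHS1-5 2, at 25.6, 22.3 and 27.6 CPM. CD2, a T cell surface protein, was near 0 at 0.135 to 0.162 CPM. Of the 10 markers, 0 were at 0 reads in the sgHS1-5 libraries, while 1 to 3 were at 0 in the libraries of the other groups. DUSP6 and DUSP2, phosphatases of ERK, followed the same libraries (DUSP6 at 2.43, 55.9 and 20.3 CPM, DUSP2 at 1.30, 21.7 and 7.84 CPM). FOS was also highest in sgHS1-5 2 among these 3 libraries. EGR1 and FOSB went the other way and were lowest there, and FOSL1 too. The source of these marker transcripts, in K562 cells or in others, was not tested. Their part in the sgHS1-5 values of EGR2, EGR3 and FOS was not tested either.

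**Figure D2:**
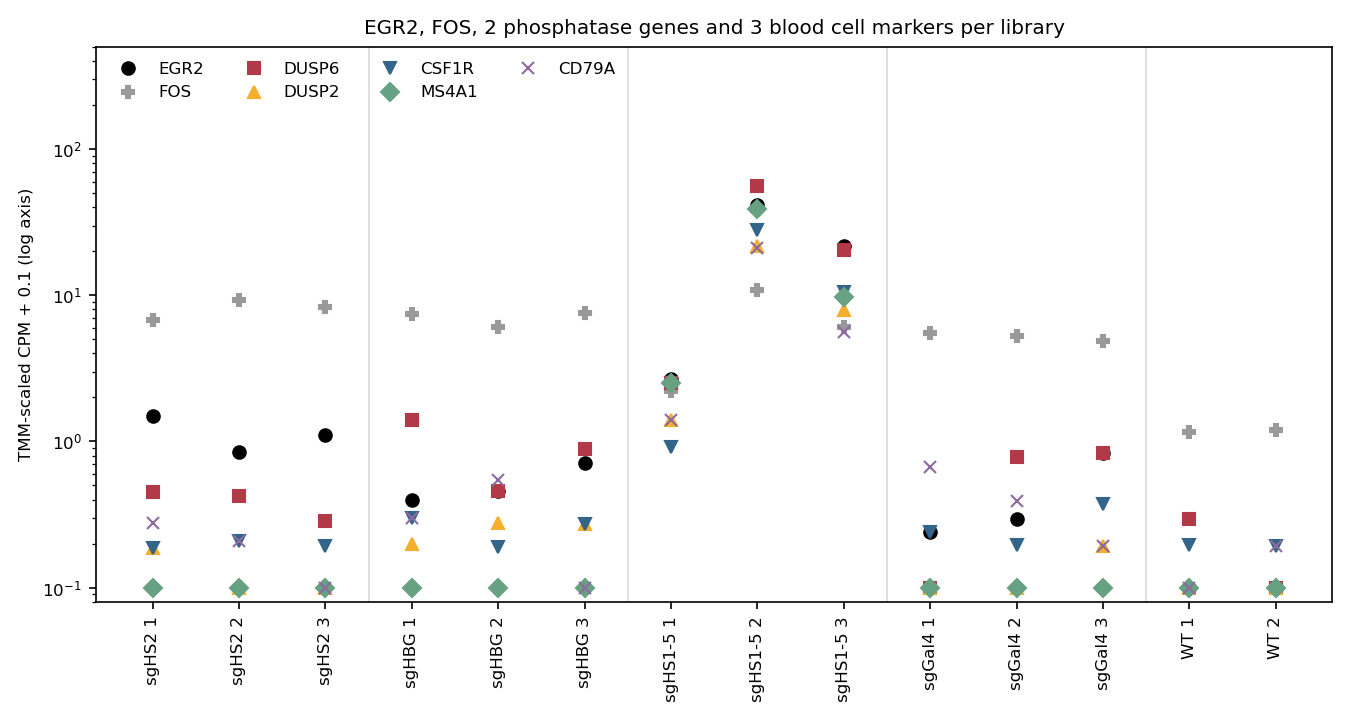
Level of EGR2, FOS, DUSP6, DUSP2, CSF1R, MS4A1 and CD79A (TMM-scaled CPM plus 0.1, log axis, so that 0 plots at 0.1) in each library, with vertical lines between the sgHS2, sgHBG, sgHS1-5, sgGal4 and WT groups. EGR2, both phosphatase genes and the 3 markers peak together in sgHS1-5 2 and 3, while FOS stays within 1.06 to 10.8 CPM throughout.

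EGR3, a relative of EGR1 known as its target in lymphocytes and neurons, was close to the detection limit. It had 11, 8 and 12 reads in sgHS2, 5, 3 and 7 in sgHBG, 0, 10 and 6 in sgHS1-5, 1, 5 and 4 in sgGal4 and 1 and 0 in WT. Its mean was highest in sgHS2 (0.975 ± 0.124 CPM, SD, n = 3), and sgHS1-5 1 had no read while sgHS1-5 2 had the highest level of all (1.37 CPM). Over the 1 WT read, the ratio was 20.9 (95% counting interval 3.49 to 854) in sgHS2, 9.81 (1.51 to 413.1) in sgHBG, 16.4 (2.54 to 686.3) in sgHS1-5 and 7.56 (1.07 to 327.9) in sgGal4. The edgeR test called EGR3 higher than WT in sgHS2 (4.05 ± 1.13, adjusted p = 0.0148) and sgHS1-5 (3.67 ± 1.20, adjusted p = 0.0256). EGR3 passed the filter on low counts through libraries of these groups, so both calls draw on values that let it in. The sgHS2 call ended without WT 2 (3.18, adjusted p = 0.126). The sgHS1-5 call ended without WT 1 (5.87, adjusted p = 0.0541), WT 2 (2.80, adjusted p = 0.16), sgHS1-5 2 (2.92, adjusted p = 0.106) or sgHS1-5 3 (3.61, adjusted p = 0.0557), and was missed by limma voom (2.63, adjusted p = 0.115). Without sgHS1-5 1, EGR3 was called higher than sgGal4 in sgHS2 (1.45, adjusted p = 0.0403), and higher than WT in sgHBG (2.99, adjusted p = 0.0204) and sgGal4 (2.61, adjusted p = 0.0412). A processed transcript overlaps the EGR3 locus on the other strand.

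IER2, a serum-induced nuclear protein outside both families, was level in all 5 groups. Its mean was 146.6 ± 28.4 CPM in sgHS2, 139.9 ± 5.96 in sgHBG, 145.6 ± 6.84 in sgHS1-5, 136.3 ± 23.7 in sgGal4 (SD, n = 3 each) and 132.3 ± 2.06 in WT (SD, n = 2). The highest group mean was 1.11 times the lowest, and the groups overlapped except sgHS1-5 and WT. IER2 was called in 0 of the 10 pairwise comparisons. Its fitted difference was 0.08 ± 0.158 in sgHBG and 0.14 ± 0.159 in sgHS1-5 against WT (adjusted p = 0.74 and 0.516). An antisense transcript overlaps IER2.

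Summed in RPKM over the 3 genes of each family in the set, FOS family transcripts were at 17.5 ± 2.12 in sgHS2, 17.98 ± 0.312 in sgHBG, 23.4 ± 1.58 in sgHS1-5, 15.5 ± 2.01 in sgGal4 (SD, n = 3 each) and 5.22 ± 0.633 in WT (SD, n = 2). FOSL1 was 71.7% to 87.4% of that sum by group mean, and FOS 8.49% in WT against 14.5% to 23.2% in the dCas9 groups. JUN family transcripts summed to 220.9 ± 32.9 in sgHS2, 205.4 ± 5.04 in sgHBG, 179.8 ± 22.1 in sgHS1-5, 282.2 ± 116.3 in sgGal4 and 132.0 ± 2.13 in WT. Library sgGal4 1 alone reached 416.3 RPKM, and its RPKM values over all genes summed to 1296148, against 629542 to 819619 in the other libraries. The sum of JUN over FOS family transcripts was 12.6 ± 1.13 in sgHS2, 11.4 ± 0.209 in sgHBG, 7.74 ± 1.27 in sgHS1-5, 17.8 ± 4.85 in sgGal4 and 25.5 ± 3.50 in WT. Transcripts of the 3 JUN family genes thus outnumbered those of these 3 FOS family genes in every library, least in sgHS1-5. FOSL2, a FOS family gene outside the set, was left out of these sums. It averaged 4.24 RPKM in sgHS2, 4.05 in sgHBG, 5.36 in sgHS1-5, 2.77 in sgGal4 and 2.125 in WT, above FOS in each group. With FOSL2 counted, the FOSL1 shares and the JUN over FOS values would be lower. EGR family transcripts summed to 54.5 ± 0.202 in sgHS2, 50.6 ± 1.42 in sgHBG, 40.4 ± 5.23 in sgHS1-5, 22.3 ± 4.54 in sgGal4 and 6.56 ± 0.0608 in WT. EGR1 was 98.6% to 99.5% of that sum in the libraries of sgHS2, sgHBG, sgGal4 and WT, and 60.9% to 97.3% in those of sgHS1-5, where EGR2 reached 37.6%. No test was run on these sums.

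Against WT, the called members were all higher. They were 7 of 10 in sgHS2 (33.1% of all tested genes were called there, 17.6% higher and 15.5% lower), 6 in sgHBG (33.6%, 17.7% and 15.9%), 8 in sgHS1-5 (42.9%, 23.4% and 19.5%) and 6 in sgGal4 (42.4%, 22.7% and 19.6%). FOS, FOSB, FOSL1, JUNB and EGR1 were called in all 4 groups. The counts include EGR3 in sgHS2, and EGR2 and EGR3 in sgHS1-5. These genes passed the filter on low counts through libraries of sgHS2 and sgHS1-5, and the medians below include them too. The median log2 difference of the 10 genes was 1.87 in sgHS2, 2.15 in sgHBG, 2.21 in sgHS1-5 and 1.51 in sgGal4, against 0.03, 0.02, 0.05 and 0.03 over all tested genes. These comparisons share the same 2 WT libraries. Heat shock genes moved with them: the summed level of 10 was 4976 to 5533 CPM in sgHS2, 5068 to 5168 in sgHBG, 4470 to 5033 in sgHS1-5, 4491 to 6193 in sgGal4 and 1491 to 1527 in WT. Of the 10, 10 were called higher than WT in sgHS2, 9 in sgHBG, 9 in sgHS1-5 and 10 in sgGal4. Their part in the higher AP-1 and EGR levels was not tested, and the dCas9 and BirA construct and the separate culture of these lines cannot be told apart. In sgGal4, 6 members were called higher than WT, and the cause was not tested.

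**Figure D3:**
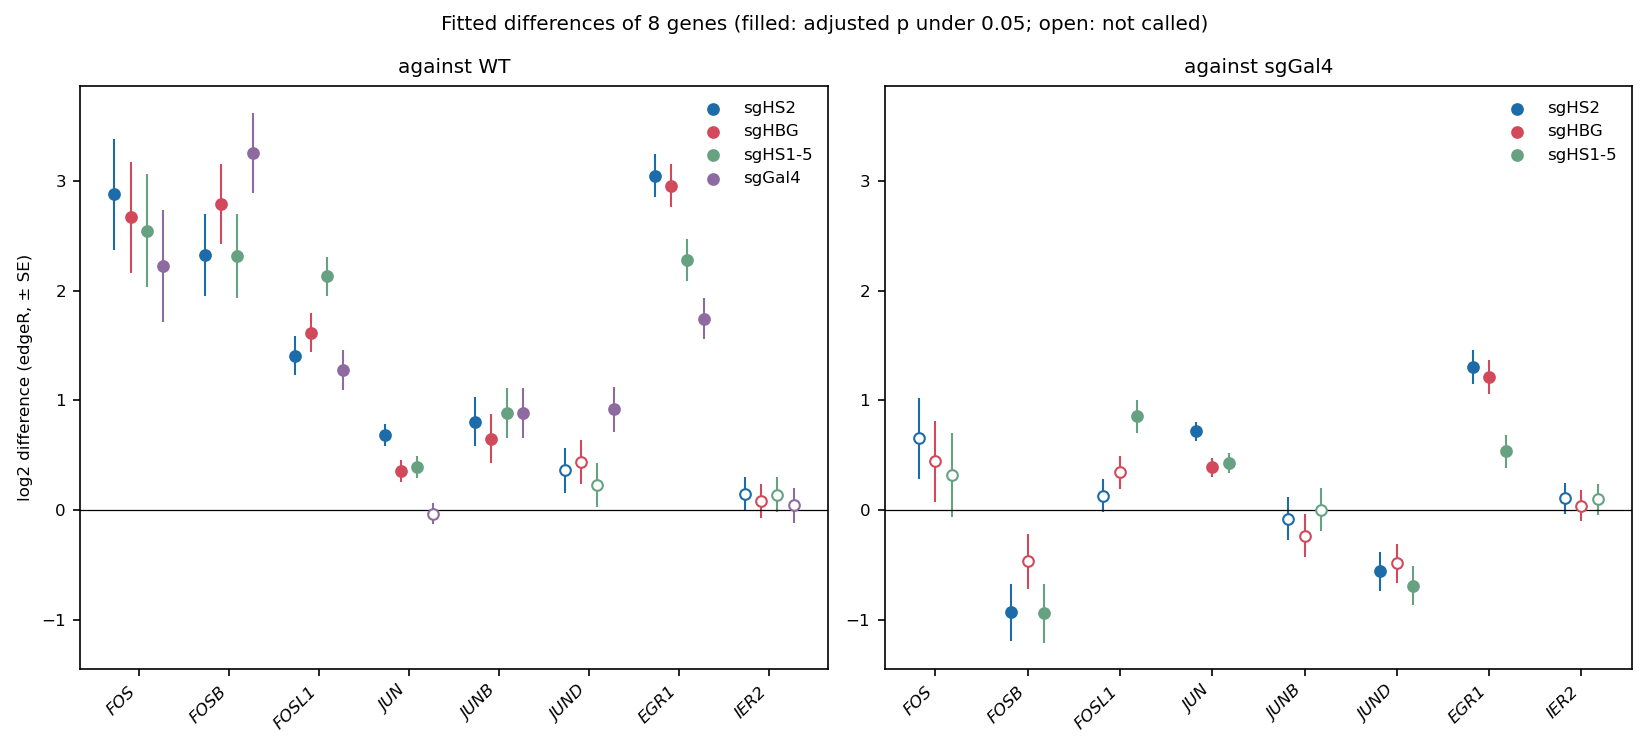
Fitted log2 difference (edgeR, ± SE) of FOS, FOSB, FOSL1, JUN, JUNB, JUND, EGR1 and IER2 in sgHS2, sgHBG, sgHS1-5 and sgGal4 against WT (left) and in sgHS2, sgHBG and sgHS1-5 against sgGal4 (right); filled points had an adjusted p under 0.05. EGR1 is between 1.75 and 3.05 above WT, and only EGR1 and JUN are filled in all 3 groups against sgGal4.

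Against sgGal4, EGR1 and JUN were higher in all 3 targeting groups and no other member was called in all 3. In sgHS2, 2 of 10 members were higher (EGR1, JUN) and 2 lower (FOSB, JUND), where 30.1% of all tested genes were called (14.5% higher, 15.6% lower). In sgHBG, 2 were higher (EGR1, JUN) and 0 lower, where 24.7% were called (12.1% and 12.6%). In sgHS1-5, 4 were higher (EGR2, FOSL1, EGR1, JUN) and 2 lower (FOSB, JUND), where 40.4% were called (20.3% and 20.2%). Of these, EGR2 had passed the filter on low counts through sgHS1-5 and sgHS2 libraries. The shares of members called were thus near those of all genes in sgHS2 and sgHBG. The 3 comparisons share the sgGal4 libraries. When only sgHS1-5 and sgGal4 entered the fit, 2 members were called, and 2283 of all tested genes in place of 5823. The calls of EGR1 (0.54, adjusted p = 0.132), JUN (0.43, adjusted p = 0.0642), FOSB (-0.93, adjusted p = 0.103) and JUND (-0.69, adjusted p = 0.0695) then ended at nearly the same differences.

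Between sgHS2 and sgHBG, JUN alone was called (0.33 ± 0.0872 higher in sgHS2, adjusted p = 0.0348, with 8.91% of all genes called, 3.76% higher and 5.15% lower). That call was lost without WT 1 or 2, any sgHBG library, or sgHS2 1 or 2 (0.29 to 0.36, adjusted p = 0.0583 to 0.162). Between sgHS1-5 and sgHBG, FOSL1 and EGR2 were higher and EGR1 lower in sgHS1-5 (25.2% of all genes called, 12.4% higher and 12.8% lower). Between sgHS1-5 and sgHS2, FOSL1 and EGR2 were higher and EGR1 and JUN lower in sgHS1-5 (38.9% of all genes called, 20.4% higher and 18.5% lower). The JUN difference there was -0.29 (adjusted p = 0.0206), and its call ended without sgHS2 1 (-0.26, adjusted p = 0.0746), sgHS2 2 (-0.26, adjusted p = 0.0589) or sgHS1-5 1 (-0.24, adjusted p = 0.0818).

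Other immediate early genes were described from a list of 26, of which 23 were tested. Against WT, 11 were higher and 0 lower in sgHS2, 10 and 2 in sgHBG, 11 and 5 in sgHS1-5, and 14 and 2 in sgGal4, with list medians of 0.52, 0.53, 0.54 and 0.77. Over all tested genes, 33.1%, 33.6%, 42.9% and 42.4% were called in these comparisons, 17.6%, 17.7%, 23.4% and 22.7% higher. PHLDA1, a growth-factor-induced protein of the plasma membrane, had 41.7 CPM in sgHS2, 50.8 in sgHBG, 53.3 in sgHS1-5, 58.0 in sgGal4 and 1.77 in WT (log2 4.54, 4.83, 4.90 and 5.02 above WT, SE 0.225 to 0.227, adjusted p at most 5.17e-08). TRIB1, a pseudokinase that binds COP1, had 27.6 CPM in sgHS2, 25.7 in sgHBG, 49.99 in sgHS1-5, 32.8 in sgGal4 and 3.23 in WT. BTG2, an antiproliferative gene, averaged 87.8 CPM in sgHS2, 69.9 in sgHBG, 64.9 in sgHS1-5 and 62.0 in sgGal4, against 29.2 in WT. The PHLDA1 and TRIB1 levels of all dCas9 libraries were above both WT libraries. Against sgGal4 the list split, with 6 higher and 5 lower in sgHS2, 3 and 4 in sgHBG, and 4 and 6 in sgHS1-5, where 30.1%, 24.7% and 40.4% of all genes were called. SGK1, a serum-induced kinase, was higher than sgGal4 in sgHS2 (43.1 against 17.5 CPM, 1.29 ± 0.189, adjusted p = 0.000277), in sgHBG (27.9 CPM, 0.66 ± 0.189, adjusted p = 0.0229) and in sgHS1-5 (37.6 CPM, 1.10 ± 0.19, adjusted p = 8e-04).

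Feedback inhibitors of ERK, JNK, p38 and EGR signalling, all 14 of them tested, were higher than WT in 7 cases in sgHS2, 6 in sgHBG, 6 in sgHS1-5 and 5 in sgGal4. They were lower in 0, 0, 1 and 2 cases. Over all tested genes, 17.6%, 17.7%, 23.4% and 22.7% were higher and 15.5%, 15.9%, 19.5% and 19.6% lower. Against sgGal4, 3 of the 14 were higher and 1 lower in sgHS2, 4 and 0 in sgHBG, and 4 and 3 in sgHS1-5. Over all tested genes, 14.5%, 12.1% and 20.3% were higher there and 15.6%, 12.6% and 20.2% lower. NAB2, a corepressor of EGR proteins and known EGR1 target, had 51.9 ± 4.90 CPM in sgHS2, 44.6 ± 2.37 in sgHBG, 47.97 ± 5.36 in sgHS1-5, 43.2 ± 0.415 in sgGal4 and 23.3 ± 0.621 in WT, and was called higher than WT in all 4 (1.15, 0.93, 1.04 and 0.89, adjusted p at most 9.12e-05). SPRY1, an inhibitor of receptor tyrosine kinase signalling, had 2.74 CPM in sgHS2, 9.13 in sgHBG, 9.66 in sgHS1-5, 11.2 in sgGal4 and 0.281 in WT. It was the feedback gene with the lowest p in sgHS2 against sgGal4 (-2.04 ± 0.232, adjusted p = 4.33e-05). DUSP5, a nuclear phosphatase of ERK, was higher than sgGal4 in sgHS2 (17.2 against 7.25 CPM, adjusted p = 0.000476) and sgHBG (13.3 CPM, adjusted p = 0.00673). DUSP4, another nuclear phosphatase of ERK, had 8.07 ± 0.129 CPM in sgHS2 and 3.02 ± 0.431 in sgHBG, against 0.488 ± 0.0817 in sgGal4 (adjusted p = 0.000487 and 0.0137).

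Upstream kinases and factors were called in both directions: of 26 tested, 2 were higher and 2 lower than WT in sgHS2, 3 and 5 in sgHBG, 2 and 7 in sgHS1-5, and 2 and 6 in sgGal4. In all, 4, 8, 9 and 8 of the 26 were called, where 33.1%, 33.6%, 42.9% and 42.4% of all tested genes were. The share of the list was below that of all genes in sgHS2, and near it in sgHBG. ELK1, a partner of SRF at CArG boxes, was lower than WT in sgGal4 (30.3 against 77.7 CPM, -1.35 ± 0.171, adjusted p = 4.8e-05), sgHBG (48.5 CPM, adjusted p = 0.00768) and sgHS1-5 (39.8 CPM, adjusted p = 0.000685). MAPK9 (JNK2) was lower than WT in all 4 groups, at 56.2 CPM in sgHS2, 51.3 in sgHBG, 48.4 in sgHS1-5 and 52.4 in sgGal4 against 81.8 in WT. Against sgGal4, 5 of the 26 were higher and 0 lower in sgHS2, 3 and 0 in sgHBG, and 3 and 2 in sgHS1-5, where 14.5%, 12.1% and 20.3% of all genes were higher. MAP2K1 (MEK1), the kinase that activates ERK, had 85.6 CPM in sgHS2, 76.5 in sgHBG and 79.1 in sgHS1-5, against 55.4 in sgGal4 (0.63, 0.46 and 0.51, adjusted p = 0.000291, 0.00339 and 0.00106).

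Known AP-1 target genes, a list of 15 of which 14 were in the table and 12 were tested, were higher than WT in 7 cases in sgHS2, 8 in sgHBG, 9 in sgHS1-5 and 8 in sgGal4, and lower in 0, 0, 2 and 0. Over all tested genes, 17.6%, 17.7%, 23.4% and 22.7% were higher there. CD44, a hyaluronan receptor, had 116.4 CPM in sgHS2, 193.1 in sgHBG, 199.6 in sgHS1-5 and 236.4 in sgGal4, against 4.41 in WT (log2 4.72, 5.45, 5.50 and 5.74, adjusted p at most 9.54e-09). CCND1 (cyclin D1) had 21.0 CPM in sgHS2, 34.0 in sgHBG, 31.6 in sgHS1-5 and 33.7 in sgGal4, against 5.90 in WT. Against sgGal4, the targets split, with 2 higher and 4 lower in sgHS2, 1 and 1 in sgHBG and 4 and 4 in sgHS1-5, where 30.1%, 24.7% and 40.4% of all genes were called. CD44 and CCND1 were lower than sgGal4 in sgHS2 (-1.02 ± 0.119 and -0.68 ± 0.124, adjusted p = 5.35e-05 and 0.00133). A link between the targets and the levels of the AP-1 and EGR genes was not tested.

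AP-1 relatives, 15 of 16 tested, were called in both directions against WT (6 higher and 3 lower in sgHS2, 4 and 4 in sgHBG, 5 and 7 in sgHS1-5, 4 and 6 in sgGal4), where 33.1%, 33.6%, 42.9% and 42.4% of all genes were called. ATF3, a stress-induced AP-1 partner, went against most of the members: it had 44.3 CPM in sgHS2, 38.8 in sgHBG, 18.7 in sgHS1-5, 29.4 in sgGal4 and 88.4 in WT, and was lower than WT in all 4 groups (-0.998, -1.19, -2.23 and -1.58, adjusted p at most 0.000922). BATF3, an AP-1 partner of dendritic cells, was higher than WT in sgHS2 (6.34 against 1.12 CPM, adjusted p = 0.00031), sgHBG (9.78 CPM, adjusted p = 5.11e-05), sgHS1-5 (5.25 CPM, adjusted p = 0.000652) and sgGal4 (6.88 CPM, adjusted p = 0.000174). Against sgGal4, 6 were higher and 0 lower in sgHS2, 3 and 0 in sgHBG, and 1 and 3 in sgHS1-5, where 30.1%, 24.7% and 40.4% of all genes were called. MAFF, a small MAF protein, was among those higher in sgHS2 (12.5 against 6.35 CPM, 0.99 ± 0.182, adjusted p = 0.00142).

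**Figure D4:**
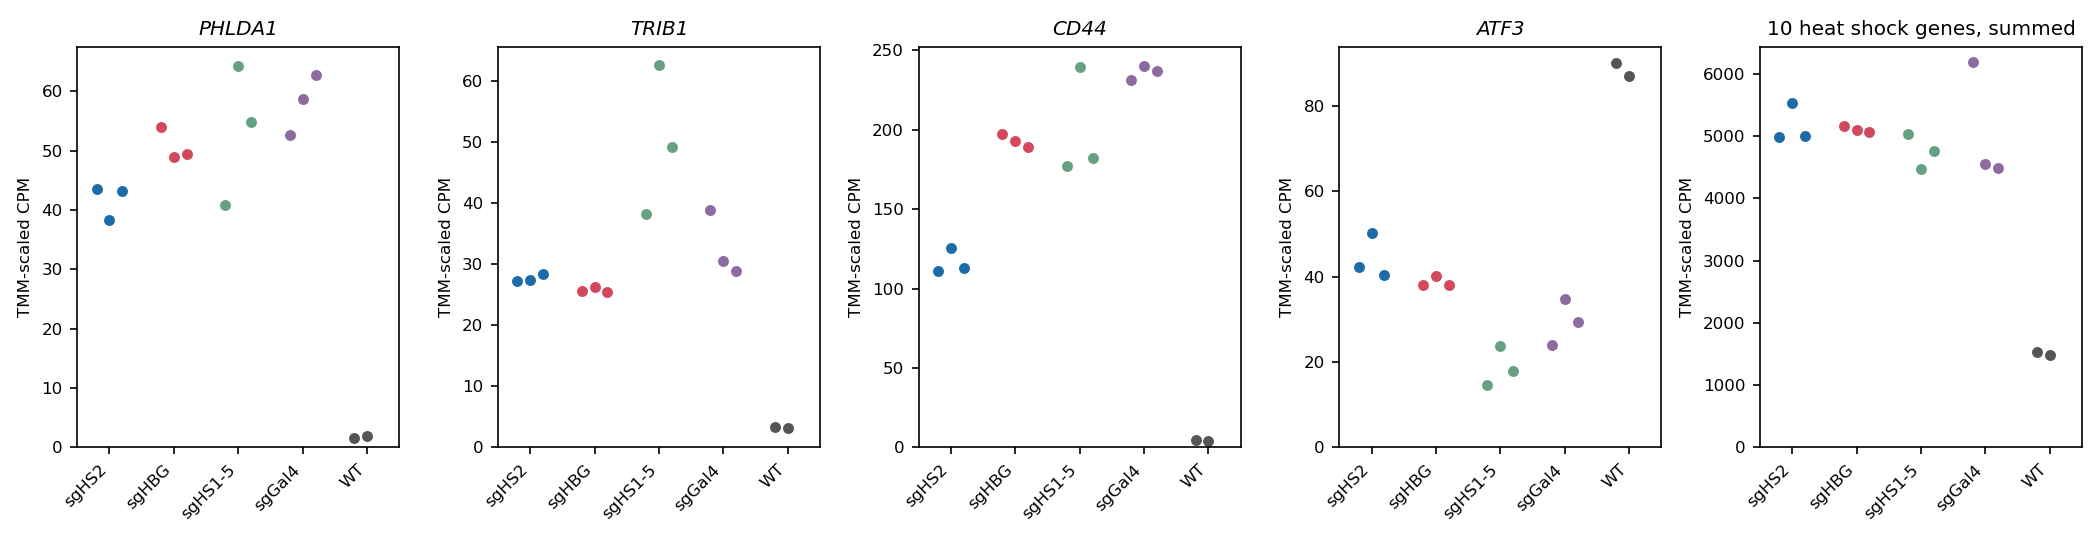
Level (TMM-scaled CPM, linear axis from 0) of PHLDA1, TRIB1, CD44, ATF3 and the sum of 10 heat shock genes in the sgHS2, sgHBG, sgHS1-5, sgGal4 and WT libraries; each point is a library. WT lies lowest in every panel except ATF3, where it lies highest.

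The genes whose pattern over the 14 libraries was most like a member's were found by the root mean square difference of centred log2 CPM, which is 0 for an identical pattern. For EGR1, they were SIGLEC6 (0.252), CPNE5 (0.254) and S1PR1 (0.262), against an SD of EGR1 itself of 1.05. SIGLEC6 averaged 202.6 CPM in sgHS2, 172.8 in sgHBG, 109.6 in sgHS1-5, 104.1 in sgGal4 and 23.6 in WT, the same order as EGR1. For FOS they were GPR132 (0.297), SFXN3 (0.358) and DPYSL2 (0.359), against an SD of 0.992. For JUN they were PIGG (0.12), PML (0.136) and IRF2 (0.14), against an SD of 0.281.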

How the data were processed

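Total RNA of 14 K562 samples was made into libraries with a kit that does not mark strand and sequenced on an Illumina instrument, per the labels' protocols. TopHat, Cufflinks and DESeq and the build hg19 are named, without versions, in the submitters' processing notes; how reads were counted is not given in the sources used here. The deposited tables hold raw read counts per gene and RPKM values, both made by the authors. The counts were tested with edgeR 4.0.16 (R 4.3.3): all 14 libraries, group means, TMM scaling, genes kept by a filter with a minimum count of 10, the quasi-likelihood F test and Benjamini-Hochberg adjustment over all 14406 genes, with an adjusted p under 0.05 as a call. The script was tested on simulated data. SE is the log2 difference over the root of F. RPKM served to compare levels between genes. The 10 genes and the gene lists were chosen with earlier results of these data known. From each list, the genes named come from the 3 with the lowest p in a comparison, where called. Intervals and floors cover counting error only. Fibroblast and epithelial markers, a further list, summed to 198.3 to 258.1 CPM in sgHS2, 159.5 to 170.3 in sgHBG, 176.7 to 251.8 in sgHS1-5, 227.8 to 460.6 in sgGal4 and 190.8 to 194.4 in WT. Same-numbered replicates mostly did not deviate together: 1 of 26 pairs had a correlation over 0.1. Deviations were still shared between groups. Libraries sgGal4 1 and sgHS2 2 correlated at 0.619, and sgGal4 2 and 3 with sgHS2 1 and 3 at 0.334 to 0.409. JUNB, JUND and IER2 were each highest of their group in sgGal4 1 and in sgHS2 2. The cause was not tested.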

Additional observations from a re-analysis of the deposited data

How the results depend on the processing

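Under 28 alternative settings, 26 of the 47 called differences of the 10 genes kept their sign and call throughout and 1 changed sign. Of the 53 not called, 26 changed sign. EGR1 kept 7 of 9 calls and FOSL1 6 of 7, while JUNB (4 calls), JUND (3) and EGR3 (2) kept none. Of 307 recomputed counts of called members, 288 stayed within 1.5 times the reported one.

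With libraries sgHS1-5 2 and 3 left out, the remaining sgHS1-5 library is assumed to vary like the other groups. FOS in sgHS1-5 against sgGal4 then turned to -1.27 (adjusted p = 0.0203), to -1.23 (adjusted p = 0.00571) with sgGal4 1 and sgHS2 2 left out too, and to -0.30 (adjusted p = 0.498) without sgHS1-5 2 alone, and it was 0.72 (adjusted p = 0.0385) without sgHS1-5 1. EGR3 in sgHS1-5 against WT turned to -2.25 (adjusted p = 0.643) and to -2.29 (adjusted p = 0.591) in these 2 settings. Called members against WT were 4 in sgHS1-5, in place of 8. The cause was not tested.

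With sgGal4 1 and sgHS2 2 left out, 5 members were called in sgHBG against sgGal4 in place of 2, and 2 between sgHS2 and sgHBG in place of 1. The calls over all genes rose in the same fits, from 3556 to 5384 and from 1284 to 3423. With all 4 of these libraries left out, the counts were 6 and 4, and 5 between sgHS1-5 and sgHBG in place of 3. With only the 2 groups compared in the fit, 2 members were called in sgHS1-5 against sgGal4 in place of 6, and 2 between sgHS2 and sgHBG. Over all genes these fits called 2283 in place of 5823, and 3503 in place of 1284. All-gene counts with all 4 libraries left out are given further below. Between sgHS2 and sgHBG there were 0 calls with no filter on low counts. On log2(RPKM + 0.1), 2 members were called in sgHS2 against sgGal4 in place of 4. With a replicate block, 0 members were called between sgHS2 and sgHBG (JUN 0.33, adjusted p = 0.0702).

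Leaving out each library in turn, called members ranged from 2 to 6 in sgHS2, 2 to 3 in sgHBG and 4 to 8 in sgHS1-5 against sgGal4. Against WT they ranged from 5 to 8 in sgHS2, 4 to 8 in sgHBG, 6 to 8 in sgHS1-5 and 5 to 8 in sgGal4. They ranged from 0 to 1 between sgHS2 and sgHBG, 2 to 3 between sgHS1-5 and sgHBG, 3 to 5 between sgHS1-5 and sgHS2, and 7 to 9 among the 5 groups. Genes called of all tested ranged from 549 to 3201 between sgHS2 and sgHBG (1284 with every library), and from 2941 to 7067 in sgHBG against WT (4844).

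With only the 2 groups compared, all genes called were 2421 in sgHS2 against sgGal4 (4332 with all groups), 2160 in sgHBG (3556), 2283 in sgHS1-5 (5823) and 3509 in sgGal4 against WT (6103), but 9896 in sgHBG against WT (4844), 3503 between sgHS2 and sgHBG (1284) and 5506 between sgHS1-5 and sgHBG (3628). With sgGal4 1 and sgHS2 2 left out they were 5384 in sgHBG against sgGal4, 7542 in sgHS2 and 7988 in sgHBG against WT (4769 and 4844), 3423 between sgHS2 and sgHBG and 6900 between sgHS1-5 and sgHBG. With sgHS1-5 2 and 3 left out they were 2470 in sgHS1-5 against sgGal4, 3825 against WT (6182), 1383 against sgHBG and 2669 against sgHS2 (5608). With all 4 left out they were 8370 in sgHS2 and 7917 in sgHBG against sgGal4, 9493 in sgHS2, 9849 in sgHBG and 9985 in sgGal4 against WT, 6265 between sgHS2 and sgHBG and 6176 between sgHS1-5 and sgHBG.

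Relative log expression scaling moved no member by more than 0.0192 on the log2 scale. Scaling by library totals alone would move the median of all genes to 0.31 in sgHS1-5 against sgGal4 and to -0.16 in sgGal4 against WT, so the differences hold relative to most genes. Depth limits EGR2 and EGR3, whose WT values rest on 0 and 1 reads.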
